A study of Mus musculus with 3 samples.

Results

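This account follows 7 MHC class II genes through the RNA of single cells from the mouse brain and blood. They are H2-Aa, H2-Ab1, H2-Eb1, H2-DMa, H2-DMb1, Cd74 and Ciita, chosen by name as a pathway, and all 7 were listed among the 17129 genes of the naive brain, the 18935 of the brain with metastases and the 16619 of the blood (19039 genes in any of these 3 matrices). The study profiled cells by CITE-seq, in which RNA and tags of surface antibodies are read together for each droplet, and asked how microglia, the resident macrophages of the brain, shape the immune cells around brain metastases. The mice were females aged 2 to 3 months on what the labels call C57Bl/6, and 8 samples with their own hashing antibodies were loaded as 1 pool. Control mice carried Cx3cr1CreERT, a tamoxifen-switched recombinase driven by Cx3cr1, a gene of microglia and monocytes. Depleted mice carried Cx3cr1CreERT-ROSA-iDTR, which adds a Cre-dependent receptor for diphtheria toxin. Both genotypes were given tamoxifen and, after a pause of one month, the toxin, so drug exposure was common to both arms. Metastases were started by carotid injection of E0771, a mouse mammary tumour line, about 2 weeks before collection. Brain cells had been enriched on Percoll, and the submitters state that remnant microglia are present in depleted samples.

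Under the control label there were 785 cells from the naive brain and 1371 from the blood of mice with metastases, and under the depleted label 1868 and 1553. The 5933 cells of the brain with metastases could not be divided by arm here and count as 1 pool. Each arm had a single hashed sample in each tissue and so no replicate, so no test was made and no p-value is given; intervals on shares are exact 95% Clopper-Pearson intervals and cover counting error only. Levels are depth-corrected UMIs (captured molecules) summed over the cells of a group and scaled to 10000. The assay counts 1 tag at the 3′ end of each molecule, so levels of different genes are set side by side without scaling to transcript length. Each matrix was corrected separately, so levels from different matrices stand side by side and no ratio is taken across them. Median corrected UMIs per cell were 9613 for the naive brain, 13647 for that with metastases and 5118 for blood. In naive microglia Cx3cr1 was at 10.0 where the label says depleted and 1.72 where it says control. The naive microglia cluster held 686 of the 1868 cells labelled depleted and 134 of the 785 labelled control. Whether the labels are right was not tested, so samples are named by their labels throughout. Some barcodes stood in more than 1 matrix: 29.1% of those from the naive brain, 17.1% from the brain with metastases and 28.5% from blood.

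MHC class II molecules present peptides taken up from outside the cell to CD4+ T cells. H2-Aa and H2-Ab1 encode the 2 chains of I-A, and H2-Eb1 the beta chain of I-E; C57BL/6 mice lack a working I-E alpha gene, so H2-Eb1 RNA gives no I-E dimer in them. Cd74, the invariant chain, guides new class II molecules to endosomes and fills their groove. H2-DMa and H2-DMb1 form H2-M, which exchanges the last piece of Cd74 for peptide, and H2-O holds H2-M back. Ciita is the coactivator that switches the class II genes on. Dendritic cells and B cells carry class II constantly, macrophages raise it under interferon gamma, and resting microglia are known for very little of it.

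Ciita does not bind DNA itself but docks on factors at a shared promoter module, in which the RFX complex binds an X box and NF-Y binds a Y box, a CCAAT element read in reverse. The promoters of 3 members are shown because the same pair of short letter patterns stands at nearly the same spacing in each. The capitals mark GNAACT, where N is any base, and TGATTGG, which holds the reverse complement of CCAAT; both patterns were chosen after these letters had been seen. Each line gives the 110 bases just before the gene's start, in the RefSeq table of GRCm38.p6, 5′ to 3′ on the gene's own strand.
H2-Aa (chr17:34287824-34287933, minus strand): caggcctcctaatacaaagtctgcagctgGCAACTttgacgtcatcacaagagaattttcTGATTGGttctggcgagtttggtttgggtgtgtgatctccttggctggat
H2-Eb1 (chr17:34305757-34305866, plus strand): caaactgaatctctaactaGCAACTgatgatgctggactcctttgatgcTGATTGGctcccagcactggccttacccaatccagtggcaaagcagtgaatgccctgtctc
H2-DMb1 (chr17:34153081-34153190, plus strand): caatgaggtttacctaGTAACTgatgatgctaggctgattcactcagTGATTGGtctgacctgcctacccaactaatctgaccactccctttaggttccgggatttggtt
The first pattern begins 81 bases before the start in H2-Aa, 91 in H2-Eb1 and 94 in H2-DMb1, and 25, 24 and 25 bases separate it from the second. On either strand of 32851 promoter windows of 300 bases in that table, TGATTGG occurred in 7.82% and GNAACT in 42.8%. The pair, in this order on 1 strand and 15 to 40 bases apart, occurred in 80 windows, or 0.244%. H2-Eb2 held the pair as well, at 24 bases. H2-DMb2, H2-Oa and H2-Ob held TGATTGG but no GNAACT, and the entries of H2-DMa held no TGATTGG. In all, 4 of the 7 members were matched in the table; H2-Ab1, Cd74 and Ciita are named only. A match is a description of letters and not evidence that a factor bound there.

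Over whole samples the 7 genes stood at close levels. In the naive brain H2-Aa was at 8.24 where the label says control and 9.73 where it says depleted, and Cd74 at 22.6 and 26.4. In the blood H2-Aa was at 9.65 and 7.52 in that order, and Cd74 at 30.0 and 23.8. The pooled brain with metastases held H2-Aa at 8.86, H2-Ab1 at 9.38, H2-Eb1 at 7.53 and Cd74 at 24.96. Ciita was the scarcest member in each of the 5 samples, from 0.140 in the control naive brain to 0.426 in the control blood. H2-DMa stood between 1.43 and 2.30 and H2-DMb1 between 0.991 and 1.44 in these samples. In such sums fewer cells of a type and less RNA per cell cannot be told apart, so the cells that held the RNA were counted next.

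A minority of cells held most RNA of the classical genes and Cd74. A carrier cell was defined as one with at least 50 corrected UMIs per 10000 of Cd74, H2-Aa, H2-Ab1 and H2-Eb1 together, which is a range of a level and not a cell type. Carriers were 373 of 2653 cells of the naive brain (14.1%, 12.8 to 15.4), 902 of 5933 of the brain with metastases (15.2%, 14.3 to 16.1) and 485 of 2924 of the blood (16.6%, 15.3 to 17.99). Their median 4-gene level was 273, 252 and 260. Few cells lay near the minimum: 20 cells of the naive brain were between 40 and 50 and 13 between 50 and 60, with 56 and 27 where metastases were present and 16 and 21 in blood. At the other end, 26.4%, 28.7% and 36.2% of cells held none of the 4 genes. At least 1 H2-Aa UMI was also seen in 27.6% to 28.5% of brain cells that were not carriers; the part of free RNA in this was not tested, and a single UMI is not read as expression below.

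**Figure D1:**
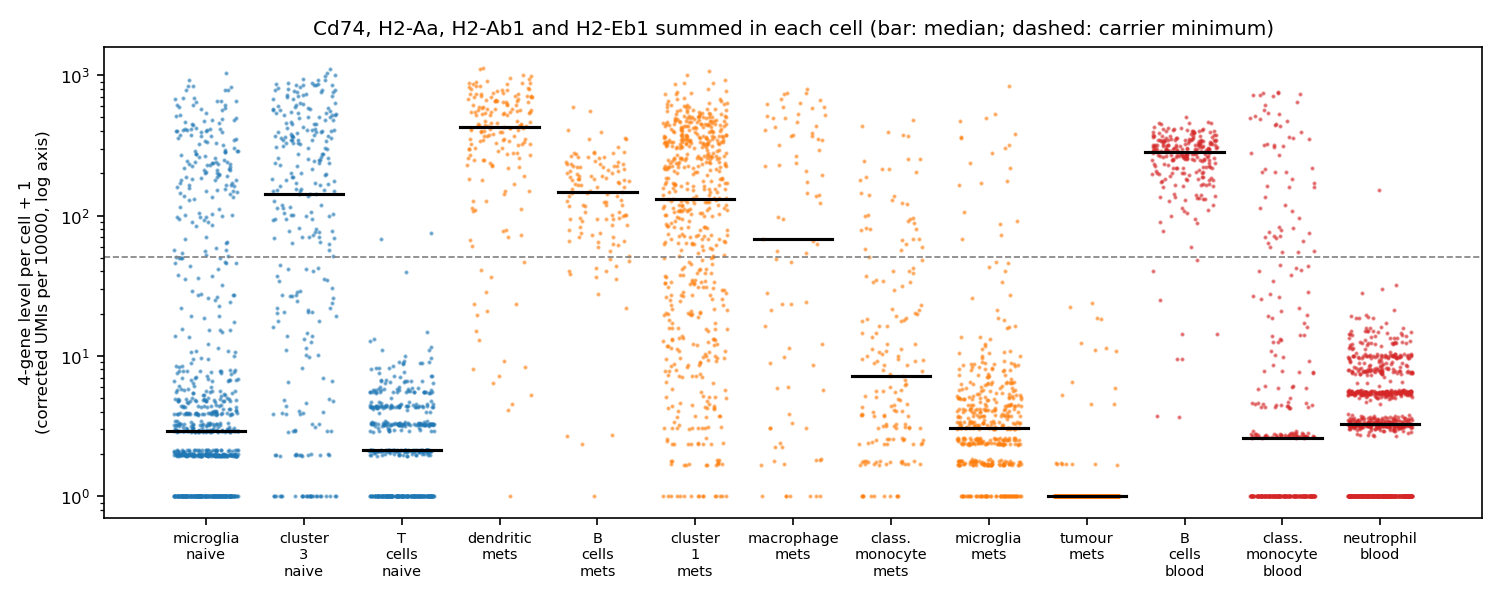
Each dot is a cell; the vertical axis is its summed level of Cd74, H2-Aa, H2-Ab1 and H2-Eb1 plus 1 (corrected UMIs per 10000, log axis) and the horizontal axis shows 13 clusters of the naive brain, the brain with metastases (mets) and the blood, named from markers where a name is given. Black bars are medians over cells and the dashed line is the carrier minimum of 50; the blood B cells sit almost wholly above it, and the microglia and the blood classical monocytes sit mostly below it with a scatter of cells far above.

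The other 3 members, which the carrier rule does not use, followed it to different degrees. Ciita was the most confined, with carriers holding 87.1% of its UMIs in the naive brain, 85.7% where metastases were present and 82.1% in blood. H2-DMb1 had 68.0%, 80.5% and 71.3%, and H2-DMa only 42.7%, 59.1% and 59.1%. At least 1 Ciita UMI was seen in 56.8% of naive carriers against 1.62% of other cells, in 59.3% against 2.23% in the brain with metastases, and in 48.5% against 2.26% in the blood. T cells of the naive brain, which should lack the gene, had one in 0.802% of 499 cells, at a median of 6534 raw UMIs against 9617 over that matrix. With every cell thinned to 2000 corrected UMIs the shares were 19.3% against 0.351%, 16.5% against 0.616% and 26.0% against 0.943%. This equalised corrected totals and not sequencing depth, since the correction raises shallow cells. All 7 genes were seen together in 51.7%, 54.9% and 29.7% of carriers.

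As levels, the 3 genes were each past 2-fold higher in carriers than in other cells of every matrix. Ciita stood at 1.04 against 0.0269 in the naive brain, 0.981 against 0.0307 in the brain with metastases and 1.55 against 0.0714 in the blood, with log2 ratios of 3.16, 3.05 and 3.26 on levels plus 0.1. H2-DMb1 had ratios of 3.37, 4.07 and 3.24, and H2-DMa the smaller ratios of 2.01, 2.80 and 2.63. Over all genes at 0.5 per 10000 or more on either side, 4.82%, 10.7% and 7.15% were past 2-fold higher in carriers of the naive brain, the metastatic brain and the blood. Carriers and other cells differ in type, so these ratios describe which cells hold the genes together and compare no treatment.

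**Figure D2:**
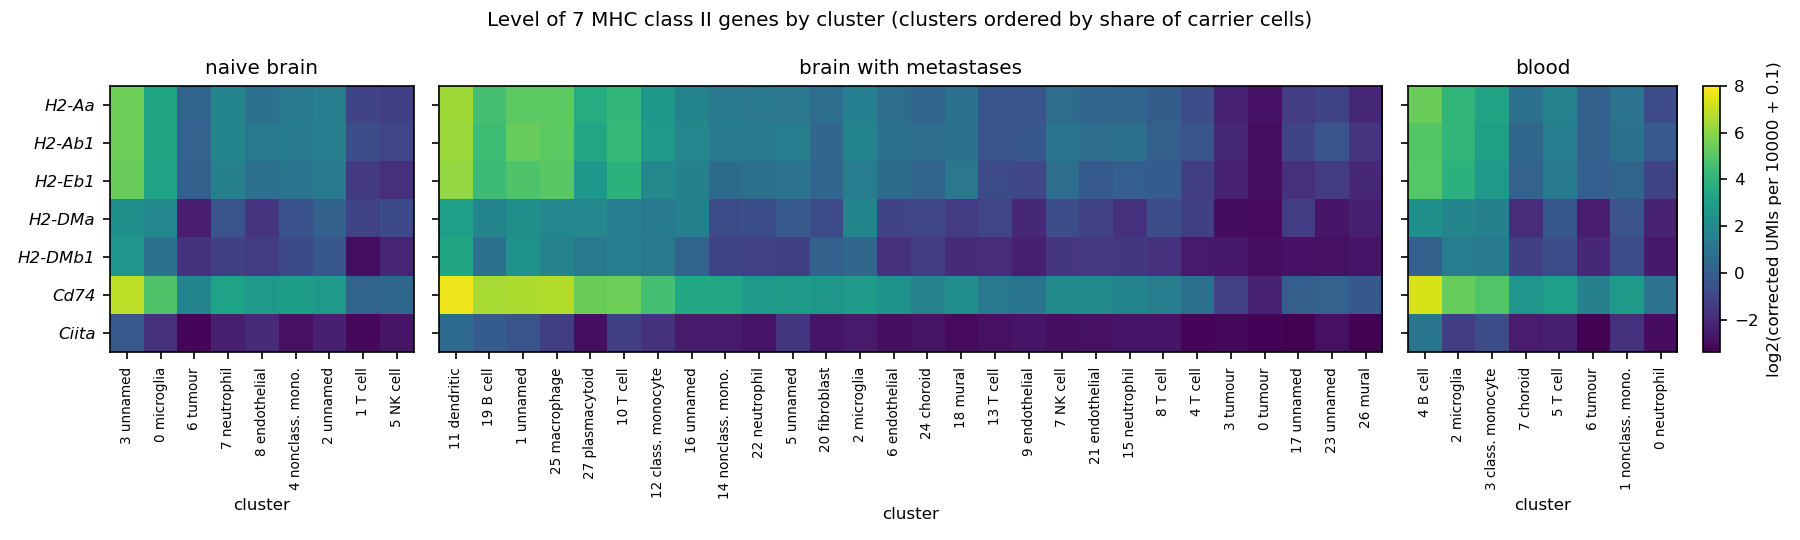
Colour gives the level of each member (rows) in each cluster (columns) of the 3 matrices as log2 of corrected UMIs per 10000 plus 0.1; clusters run from the highest to the lowest share of carrier cells, and their numbers are followed by marker-based names or "unnamed". The dendritic cluster 11 and blood B cell cluster 4 hold the brightest Cd74, and H2-DMa keeps a middle level in microglia, where the other genes are low in the brain with metastases.

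By cluster, dendritic cells, B cells and one group of macrophages stood at the top. The brain with metastases was clustered here without the class II genes, and clusters of the other matrices are the authors'; all were named from marker lists. Cluster 11 of the brain with metastases, called dendritic-like from markers of migratory dendritic cells, had the highest levels of that matrix: H2-Aa 81.9, H2-Ab1 77.4, H2-Eb1 71.3, Cd74 207, H2-DMa 8.06, H2-DMb1 9.85 and Ciita 1.40. Of its 178 cells 159 were carriers (89.3%, 83.8 to 93.5). The migratory list that named the cluster was lower in these carriers, at 10.1 against 48.5 in the other 19 cells. The list of conventional dendritic cells of type 2 (8 genes) was higher in the carriers for 7 of 8 genes, at 12.9 against 3.63. B cells followed, with 104 carriers among 119 cells in the brain with metastases (cluster 19, 87.4%) and 240 among 249 in the blood (cluster 4, 96.4%, 93.2 to 98.3). In cluster 19, 54.8% of carriers had a barcode in another matrix, where blood B cells had 12.1%. The list of 10 macrophage genes summed to 71.4 in carriers of cluster 19 and to 10.5 in those of the blood B cells. The part of mixed droplets was not tested. Blood B cells held H2-Aa at 42.7, Cd74 at 160 and Ciita at 2.02. That Ciita level was the highest of the blood clusters, while their H2-DMb1 was only 1.01.

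Most carriers of the brain with metastases were in neither class. Cluster 1, an unnamed cluster of 590 cells led by the interferon-induced chemokine gene Cxcl9, by Ccl7 and by the macrophage gene Ms4a7, held 384 carriers (65.1%, 61.1 to 68.9), which is 42.6% of all carriers there. Its levels were 35.1 for H2-Aa, 40.5 for H2-Ab1, 29.2 for H2-Eb1 and 97.9 for Cd74. The macrophage-like cluster 25 was alike, at 34.8 for H2-Aa and 101 for Cd74, with 46 of 83 cells as carriers. Plasmacytoid-like dendritic cells (cluster 27, 27 cells) had H2-Aa at 12.5 but Ciita at 0.0276, which rested on 1 UMI among carriers. Together the dendritic-like and plasmacytoid-like clusters held 171 of the 902 carriers (18.96%, 16.4 to 21.7).

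The share of carriers in microglia clusters differed between the matrices, which were not clustered in the same way. No cluster of the naive brain was named for B cells or dendritic cells, whereas the brain with metastases had such clusters. A difference between the microglia themselves is therefore not shown. The microglia cluster of the naive brain (cluster 0, 820 cells) had 151 carriers (18.4%, 15.8 to 21.2), and cluster 2 of the brain with metastases (475 cells) had 20 (4.21%). Cluster 16 there, which held 10 of 10 microglial markers but was led by Stfa1 and Cxcr2, had 12 carriers among 134 cells (8.96%), with 67.9% of its barcodes shared. Both together had 32 among 609 (5.25%, 3.62 to 7.34). H2-Aa stood at 10.1 in naive cluster 0 and 2.78 in cluster 2, in matrices that were corrected separately, and H2-DMa at 3.64 and 3.43. The largest share in the naive brain was in cluster 3, with 178 of 283 cells (62.9%, 57.0 to 68.5), H2-Aa at 44.7 and Cd74 at 116. That cluster carried classical monocyte markers but was led by Cxcl9, Fabp5, Ms4a4c and Cd209a, so it is called by its number. In the blood, classical monocytes (cluster 3) had 60 carriers among 355 cells (16.9%, 13.2 to 21.2). Few of these carriers lay in the authors' Ly6C-high surface gate. Of the cluster's cells in that gate, 2 of 68 labelled control and 0 of 57 labelled depleted were carriers. In the Ly6C-low gate 25 of 73 and 21 of 118 were, so the marker-based name and the surface gate differed for many carriers. A microglia-like cluster 2 of the blood had 148 among 468 (31.6%), but 82.7% of its barcodes were also listed in another matrix.

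Most clusters of T cells, NK cells, neutrophils and tumour cells held few carriers. There were 2 carriers among 499 naive T cells, 0 among 146 naive NK cells, which allows a share of up to 2.49%, and 1 among 966 blood neutrophils. Clusters 0 and 3 of the brain with metastases, named tumour or epithelial from 3 of 8 markers, had 2 carriers among 1157 cells. In cluster 0 H2-Aa stood at 0.0383 and Cd74 at 0.105. The vascular cluster 2 of the naive brain, left unnamed, had 20 carriers among 479 cells. Higher shares stood in blood T cells (cluster 5, 10 of 206, 4.85%), in naive cluster 6, named tumour or epithelial from 3 of 8 markers (7 of 111, 6.31%), and in blood cluster 6, named in the same way (7 of 180, 3.89%), where 49.03%, 72.1% and 83.9% of barcodes were shared. Neutrophils of the naive brain (cluster 7) had 6 of 105 (5.71%), with 65.7% of barcodes shared. In the brain with metastases neutrophil cluster 22 had 7 of 103 (6.80%), with 22.3% shared, and neutrophil cluster 15 had 1 of 139. A T cell-like cluster of the brain with metastases (cluster 10) was apart from these, with 68 carriers among 181 cells. In its carriers the macrophage list (10 genes) summed to 117 and the T cell list to 24.1, against 102 and 25.6 in its other cells, and 52.9% of those carriers had a barcode in another matrix; the part of mixed droplets was not tested.

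The naive microglia cluster was split cell by cell. Carriers there held H2-Aa at 54.0 and Cd74 at 150, while the 669 other cells held 0.327 and 1.99. The fixed list of 10 microglial markers was lower in the carriers for 10 of 10 genes, summing to 65.5 against 156. P2ry12, a purine receptor of microglia, was at 4.15 against 10.6. Over single carriers the list had a median of 44.8 with quartiles of 14.6 and 109, against a median of 163 in the other cells. The B cell list (8 genes) was higher in carriers for 8 of 8 genes, all past 2-fold, summing to 13.2 against 0.740, and none of its genes was at 0 on either side. The list of conventional dendritic cells of type 2 (8 genes) was higher for 7 of 8, summing to 4.32 against 0.423. That list is not particular to dendritic cells, since it summed to 10.4 in the 146 naive NK cells.

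The genes with the largest ratios in these carriers were those of other antigen-presenting cells. Cd79a, a signalling chain of the B cell receptor, was at 5.02 against 0.25, and Ms4a1, which encodes CD20, at 1.81 against 0.0448. The lectin genes Mgl2 and Cd209a were at 1.49 against 0.0329 and 1.05 against 0.00448. Counting cells with at least 3 UMIs of Cd79a, Cd79b and Ms4a1, or of Cd209a, Mgl2 and Clec10a, 40 carriers had only the B cell genes, 35 only the dendritic genes, 4 both and 72 neither. Either set was thus present in 52.3% of carriers (44.0 to 60.5), against 3.14% of other cells of the cluster and 0.402% of T cells that were no carriers; both short lists were chosen after seeing the data. Median raw UMIs were 16580 in carriers and 13658 in the other cells, and 38.4% and 27.8% of them had barcodes in another matrix.

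The kinds of carrier differed in microglial RNA. The median of the microglial list was 10.7 in carriers with B cell genes, 81.9 in those with dendritic genes and 51.6 in the 72 with neither. All 3 medians lay below the lower quartile of the non-carriers, which was 117. Which of these cells are microglia, other cells or droplets with more than 1 cell was not tested. The 20 carriers of the microglia cluster in the brain with metastases were nearer to their neighbours in microglial RNA, with a list median of 129 against 160 and P2ry12 at 9.96 against 9.12. They still held Mgl2 at 2.40 against 0.00322 and the monocyte chemokine receptor gene Ccr2 at 2.06 against 0.0870, and 12 of the 20, against 9.89% of the others, shared a barcode with another matrix.

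**Figure D3:**
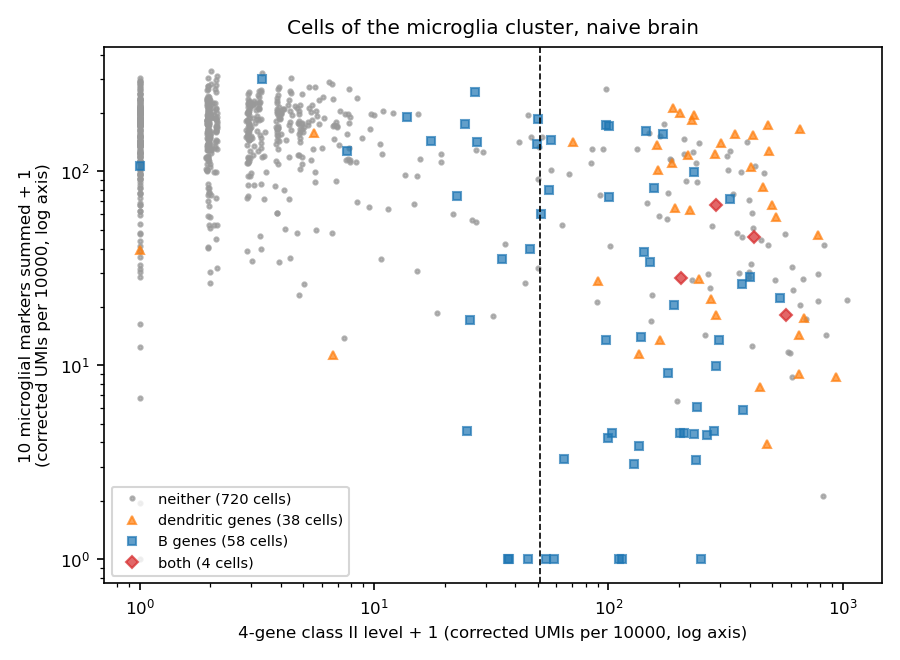
Each point is 1 of the 820 cells of the naive microglia cluster; the horizontal axis is the 4-gene class II level plus 1 and the vertical axis the summed level of 10 microglial markers plus 1 (both in corrected UMIs per 10000, log axes), with symbols for cells with B cell genes, dendritic genes, both or neither. The dashed line is the carrier minimum of 50; cells right of it spread down to low microglial levels, and most cells with B cell or dendritic genes are among them.

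In the clusters with classical monocyte markers the carriers had fewer monocyte transcripts and more dendritic ones, to different degrees. In cluster 3 of the naive brain 8 of 8 classical monocyte markers were lower in carriers, summing to 28.9 against 89.6, and 8 of 8 dendritic type 2 markers were higher, at 10.6 against 0.900. Cd209a was at 3.69 in carriers and at 0 in the other 105 cells, and Mgl2 at 3.05 against 0.00927. Chil3, a chitinase-like protein of monocytes, was at 2.62 against 22.9, F13a1 at 0.838 against 5.24 and Vcan, a matrix proteoglycan, at 0.452 against 2.29. Ccl22 and Ccl17, chemokines of dendritic cells, were at 0.561 against 0.00927 and 0.664 against 0.0371.

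Classical monocytes of the blood showed the same split in another matrix. The monocyte list summed to 88.9 in the 60 carriers and 182 in the 295 other cells, with 7 of 8 genes lower, and the dendritic type 2 list to 12.6 against 1.25, with 8 of 8 higher. Cd209a was at 5.45 against 0.127, Cd7 at 2.17 against 0.0519 and Flt3, the growth factor receptor of dendritic precursors, at 1.20 against 0.502. Chil3 stood at 6.73 against 54.3. The short dendritic list was present in 41.7% of carriers (29.1 to 55.1) and 0.678% of other cells. Here only 13.3% of carriers and 6.78% of other cells had shared barcodes. Carriers with the dendritic genes had a monocyte list median of 31.9, and those with neither short list 121, against 174 in the other cells. Nonclassical monocytes of the blood (cluster 1) did not show this split. In their 18 carriers the classical monocyte list summed to 66.9 against 30.1 in the other cells, and the dendritic type 2 list to 1.07 against 0.925.

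In cluster 1 of the brain with metastases the lists went the same way by smaller amounts. The dendritic type 2 list was higher in carriers for 8 of 8 genes, 3 of them past 2-fold, summing to 2.69 against 0.786, and the monocyte list lower for 7 of 8, at 36.7 against 58.5. At least 3 UMIs of that dendritic list were present in 44.0% of carriers and 16.02% of other cells. The same was seen in 57.0% of 200 NK cells outside carriers (cluster 7), so the list does not mark dendritic cells alone. Among its genes, Itgax stood at 1.51 in carriers against 0.516. The short dendritic list was present in 35 of 384 carriers (9.11%) and 7 of 206 other cells, and the macrophage list summed to 109 on both sides. The genes with the largest ratios included interferon-induced ones: Cxcl9 was at 26.9 against 9.12, Iigp1, a GTPase against intracellular microbes, at 2.61 against 0.725, and Nos2, which makes nitric oxide, at 1.23 against 0.260. Ccl8 stood at 5.04 against 1.17, AW112010 at 15.1 against 4.99 and Ly6a at 20.1 against 7.41. Lower in carriers were Spp1, which encodes osteopontin (7.39 against 32.0), the protease gene Ctsk (0.534 against 2.49) and the platelet-factor gene Pf4 (1.81 against 5.16). In this cluster 17.2% of carriers and 18.9% of other cells shared barcodes. Classical monocytes there (cluster 12) also had dendritic genes in few carriers, 2.78% against 2.21%, and held the chemokine Ccl24 at 8.09 against 0.203. In them the dendritic type 2 list was higher in carriers for only 5 of 8 genes, 1 of them past 2-fold, summing to 1.01 against 0.608.

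Cells of the high clusters that stayed under the carrier minimum had their own genes; they held less class II RNA, at 4-gene levels of 16.1 in cluster 11, 28.2 in cluster 19 and 7.88 in cluster 25, but were not without it. In cluster 11 the 19 non-carriers held the migratory dendritic list at 48.5 against 10.1, with 8 of 8 genes higher, among them Ccr7, the receptor that leads dendritic cells to lymph nodes, at 17.3 against 3.65. Il12b was at 4.72 against 0.300 and Ccl5 at 126 against 16.9, while Ciita was at 0 and H2-Aa at 2.03 against 91.1. Those cells still held Cd74 at 11.9. In B cell cluster 19 the 15 non-carriers held genes of B cell precursors, with Vpreb1, a surrogate light chain, at 2.10 against 0 and Dntt, which adds bases to antibody gene joints, at 0.831 against 0. In macrophage-like cluster 25 the 37 non-carriers held osteoclast-type genes, with Ctsk at 14.1 against 0.0169, Acp5 at 8.78 against 0.641 and Spp1 at 19.6 against 0.843. These counts of cells are small, and the genes lower in carriers were picked after their values were seen.

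H2-DMa was the member with the smallest share of its UMIs in carriers. In the 669 naive microglia that were not carriers it stood at 3.12, with at least 1 UMI in 89.99% of cells, while H2-Aa was at 0.327, Ciita at 0.0105 and H2-DMb1 at 0.991. T cells of the same matrix had H2-DMa at 0.375, with a UMI in 25.5% of cells at a median of 6534 raw UMIs against 13658. Thinned to 2000 UMIs the shares were 45.0% and 7.62%. The microglia of the brain with metastases had the same pattern in their 455 non-carriers, with H2-DMa at 3.29, H2-DMb1 at 1.00 and H2-Aa at 0.309. Blood classical monocytes that were not carriers held H2-DMa at 1.98. Non-carriers of cluster 1 held 2.01, with their 4-gene level still at 13.3. Microglia and blood classical monocytes with almost no classical class II RNA thus kept H2-DMa RNA, in 3 matrices some of whose droplets are shared. Not all myeloid cells did so: nonclassical monocytes outside carriers were at 0.532 in the naive brain, 0.374 with metastases and 0.519 in blood. Blood neutrophils outside carriers were at 0.101.

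Among carriers, H2-DMb2 and H2-Ob were highest in B cells, while H2-DMb1 did not separate B cells of the brain with metastases from all other carriers. Set against 1000 UMIs of the 4 classical genes, so that carriers of different level can be read together, H2-DMa ran from 11.01 to 30.3 over the clusters with at least 10 carriers. H2-DMb1 was at 3.77 in blood B cells and 10.9 in those of the brain with metastases. It was at 22.4 in dendritic cluster 11, 24.5 in cluster 1 and 32.2 in blood classical monocytes. Some other carriers were low as well, at 6.80 in cluster 5 and 13.4 in cluster 25 of the brain with metastases and 11.3 in blood cluster 1. H2-DMb2, a close copy of H2-DMb1, was at 18.98 and 13.6 in B cells, 3.53 in cluster 11, 0.510 in cluster 1 and 1.31 in blood monocytes. The sum of both was 22.7 in blood B cells, 24.5 in B cells of the brain with metastases, 25.9 in cluster 11 and 25.01 in cluster 1. It was not the same everywhere, at 33.5 in blood classical monocytes, 38.7 in the classical monocytes and 13.7 in the macrophage-like cluster 25 of the brain with metastases, 11.3 in blood cluster 1 and 7.77 in cluster 5. The genes are near-identical in sequence, so the split of reads between them is uncertain. Reads that match both may be missing from the sum as well, which was not tested.

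H2-Oa and H2-Ob, the chains of the H2-M inhibitor, were high in B cells. They stood at 10.1 and 12.6 per 1000 in blood B cells and at 8.57 and 9.47 in those of the brain with metastases. In cluster 11 they were at 2.72 and 1.08, and in cluster 1 at 0.432 and 0.276. The 12 plasmacytoid-like carriers had H2-Oa at 8.38, close to the B cells, but H2-Ob at 0.466. In the naive microglia cluster most H2-Oa lay outside carriers, with 282 of 385 UMIs in the other 669 cells, at a level of 0.421 against 0.687 in carriers. Ciita per 1000 was 7.57 in blood B cells and 7.10 in blood classical monocytes, against 5.20 in B cells, 3.22 in cluster 11 and 3.02 in cluster 1 of the brain with metastases. Carriers of the naive microglia cluster lay between, with H2-DMb2 at 3.27, H2-Oa at 2.24 and H2-Ob at 2.27.

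**Figure D4:**
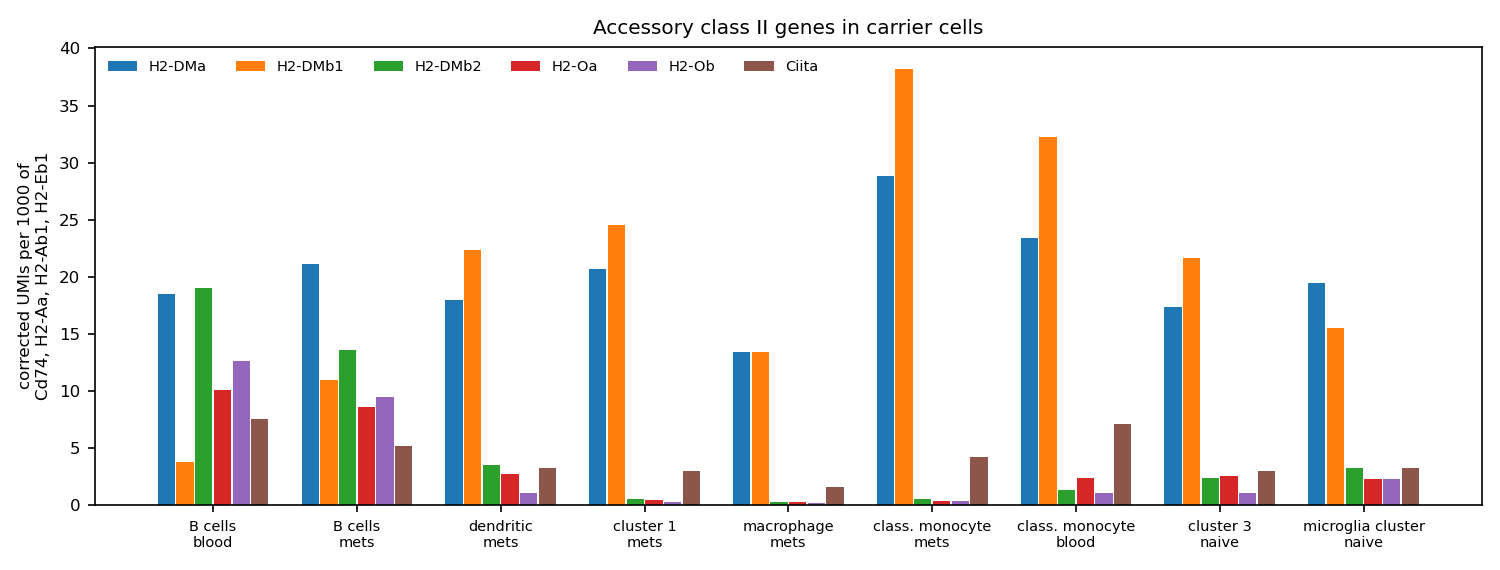
Bars give corrected UMIs of 6 accessory genes per 1000 UMIs of Cd74, H2-Aa, H2-Ab1 and H2-Eb1 in the carrier cells of 9 clusters; the vertical axis starts at 0, and each bar is 1 sum over cells with no error bar because there is no replicate. H2-DMb2, H2-Oa and H2-Ob are tall in both B cell clusters (18.98, 10.1 and 12.6 in blood). H2-DMb1 is taller in the myeloid ones shown, though only at 13.4 in the macrophage-like cluster 25 against 10.9 in B cells of the brain with metastases.

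The surface gates of the authors gave a second view of who carries class II RNA. In the blood 249 of 366 cells in the B220+ gate were carriers (68.0%), against 77 of 693 in the CD11b+ Ly6C-low gate (11.1%), 3 of 143 in the Ly6C-high gate (2.10%) and 2 of 895 in the Ly6C+ Ly6G+ gate of neutrophils. In the naive brain the CD11b+ Ly6C-low gate had the largest share, 93 of 273 (34.1%, 28.5 to 40.02). The B220+ gate had 30 of 109 (27.5%) and the Ly6C-high gate 41 of 150 (27.3%). The gate of CNS-native myeloid cells, which holds microglia, had 168 of 1256 (13.4%). Gate and cluster disagreed for many cells, since 38 of 198 cells in the NK1.1+ gate of the blood were carriers.

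Between the arms of the naive brain, class II RNA of the microglia cluster was slightly lower under the depleted label. The sample labelled depleted had H2-Aa at 9.74 and the sample labelled control 12.3, Cd74 was at 27.7 and 36.7 and H2-DMb1 at 1.63 and 1.96, while H2-DMa was higher at 3.73 against 3.17. Over the 6 measured members the log2 ratio had a median of -0.29, against -0.05 over all measured genes, and 0 of 6 were past 2-fold, where the background was 0.284% of genes higher and 0.977% lower. Carriers were 17.5% of 686 cells and 23.1% of 134 (14.7 to 20.5 and 16.3 to 31.2). The B cell list moved with this, with 0 of 8 genes higher under the depleted label and sums of 2.37 against 6.34, while the dendritic type 2 list summed to 1.16 against 1.02. Without the cells that held either short list the median was -0.65 over 611 and 109 cells, and carriers were 9.66% and 11.9%. With the CNS-native gate in place of the cluster the median turned to 0.090, again with 0 of 6 past 2-fold (backgrounds 0.264% higher and 2.25% lower).

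In cluster 3 of the naive brain the difference went the other way. Under the depleted label all 7 members were higher, and their median was 0.92 against -0.05 over all genes, and 1 of 7 was past 2-fold, where the background was 0.451% of genes. H2-Eb1 was at 53.0 against 25.4, a log2 ratio of 1.05, H2-Ab1 at 55.6 against 28.5 and Cd74 at 143 against 75.05. The partners were higher too, H2-DMa at 6.05 against 3.31, H2-DMb1 at 6.83 against 3.87 and Ciita at 0.956 against 0.493. Carriers were 66.9% of 172 cells and 56.8% of 111, with intervals that overlap, and their median 4-gene level was 449 against 242. The dendritic type 2 list was also higher, with 7 of 8 genes and sums of 9.44 against 3.35. Barcodes listed in another matrix made up 62.2% of the cluster. Without them, over 67 and 40 cells, the median was 1.59 and the 7 log2 ratios ran from 1.32 to 1.72. Without cells that held either short list the median was 0.54, and carriers were 52.2% of 115 cells and 49.5% of 93. Cells of the control sample in this cluster had a median hashtag count of 63 against 1132, and the part of wrongly assigned cells was not tested.

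The Ly6C-low gate of the naive brain showed a wide gap between the arms, in a gate whose makeup differed. All 7 members were past 2-fold higher in 120 cells labelled depleted than in 153 labelled control, where the background was 5.26% of genes. H2-Aa was at 63.8 against 10.2, Cd74 at 162 against 30.6 and Ciita at 1.00 against 0.112, and the median was 2.47. Carriers were 58.3% (70 of 120) against 23 of 153. Under the depleted label 39.2% of the gate were cluster 3 cells, and all 47 of them were carriers. Under the control label 68.6% were cells of cluster 4, nonclassical monocytes, of which 4 of 105 were carriers. In the Ly6C-high gate the median was -0.69, with 0 of 6 members past 2-fold and backgrounds of 6.24% higher and 3.93% lower, so the 2 monocyte gates and cluster 3 did not give 1 direction. The makeup of the Ly6C-high gate differed by arm as well. Cluster 6, named tumour or epithelial, was 31.2% of it under the depleted label and 8.77% under the control label. Cluster 3 was 45.2% and 57.9% in that order.

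Over the whole blood, carriers were 14.0% of cells under the depleted label (12.3 to 15.8) and 19.5% under the control label (17.5 to 21.7), where the naive brain had 13.7% (12.2 to 15.3) and 14.9% (12.5 to 17.6). Within the main blood clusters the levels were close. B cells (cluster 4, 101 cells labelled depleted and 148 labelled control) had Cd74 at 162 against 159 and H2-Aa at 40.1 against 44.5, and 0 of 7 members were past 2-fold, where the background was 0.745% higher and 0.541% lower. Ciita was the member furthest apart, at 1.48 against 2.42, a log2 ratio of -0.67, with a UMI in 42.6% of cells (32.8 to 52.8) against 53.4% (45.0 to 61.6). Classical monocytes (195 and 160 cells) had H2-Aa at 9.07 against 10.1 and 0 of 7 members past 2-fold, against a background of 0.420% higher and 0.691% lower, and their carriers were 14.4% and 32 of 160 cells. Their median of -0.16 depended on how the cells were chosen, at -0.57 by the Ly6C-high gate and 1.41, the opposite direction, by that gate in the authors' earlier annotation.

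The Ly6C-low gate of the blood was lower under the depleted label, opposite to the same gate of the naive brain. There 5 of 7 members were past 2-fold lower, against a background of 2.47%, with H2-Aa at 4.80 against 10.2 and Cd74 at 15.4 against 32.0. The makeup of this gate differed too: nonclassical monocytes of cluster 1 were 61.8% of it under the depleted label and 32.1% under the control label, and classical monocytes of cluster 3 were 23.5% and 38.4%. Within cluster 1 itself 1 of 6 members was past 2-fold lower, where the background was 1.54%, namely Cd74 at 5.54 against 12.7. The difference between the tissues was not tested.

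Smaller gates and clusters with members past 2-fold held few carriers. In the NK1.1+ gate of the naive brain 5 of 5 measured members were higher under the depleted label, against a background of 2.19%, their median was 3.27, and all 5 of its carriers were cells of cluster 3. In the Ly6C+ Ly6G+ gate of the naive brain 5 of 6 were lower (background 4.41%), in naive NK cells 1 of 2 (background 1.35%), in the CD8+ T gate of the blood, with 40 cells per arm, 3 of 6 (background 4.9%), and in blood cluster 6, where 83.9% of barcodes were shared, 4 of 4 (background 0.514%). Of the carriers in that Ly6C+ Ly6G+ gate, 5 of 6 labelled depleted and 9 of 11 labelled control were cells of cluster 3. Shared barcodes made up 74.5% and 71.2% of its cells in that order. Of the carriers in the CD8+ T gate, 4 of 5 and 6 of 8 were cells of the microglia-like cluster 2. There 52.5% and 77.5% of barcodes were shared. In 17 of the 26 clusters and gates compared, those described above among them, no member was past 2-fold, and their medians ran from -0.69 to 0.62.

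**Figure D5:**
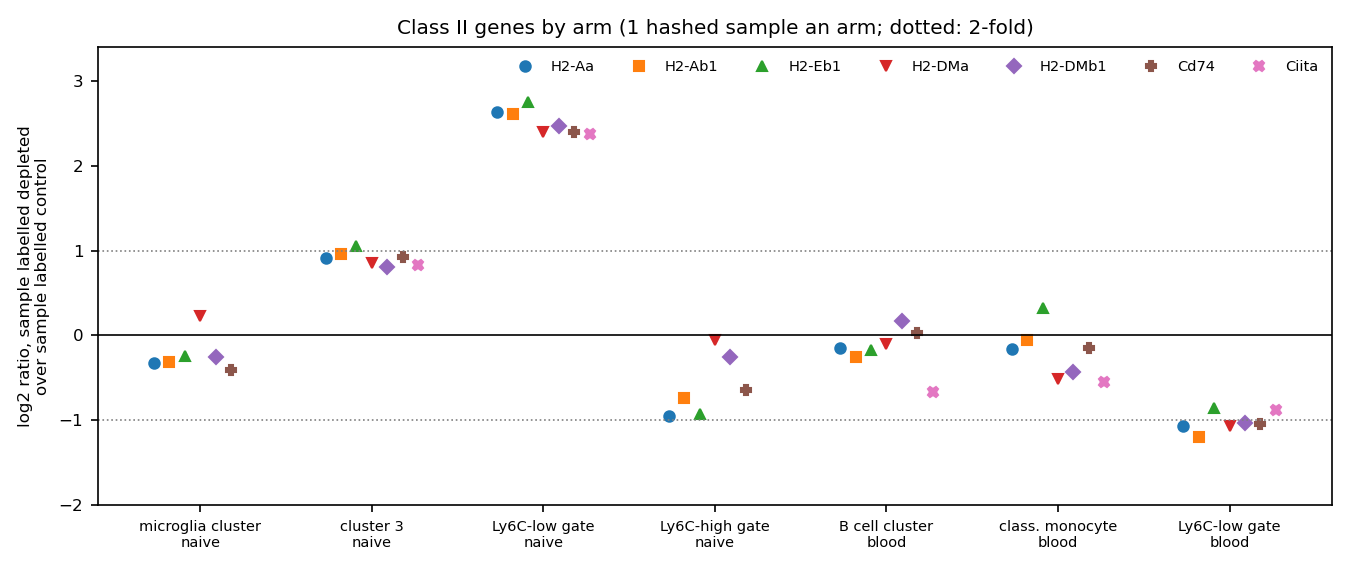
Each symbol is the log2 ratio of 1 member between the sample labelled depleted and the sample labelled control in 4 clusters or gates of the naive brain and 3 of the blood; symbols are missing where a member was under 0.5 per 10000 on both sides, dotted lines mark 2-fold and there are no error bars because each arm is 1 hashed sample. The members lie close to the upper dotted line in naive cluster 3, far above it in the naive Ly6C-low gate, and near the lower one in the Ly6C-low gate of the blood.

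Other genes of the pathway were read from a list of 33, of which 30 were in the matrices. Between carriers and other cells, 4 of the 19 measured in the naive brain were past 2-fold higher, 9 of 16 in the brain with metastases and 6 of 18 in the blood, against the backgrounds of 4.82%, 10.7% and 7.15% given above, and 0 were past 2-fold lower, where the backgrounds were 3.59%, 12.9% and 9.37%. Their medians were 0.35, 1.15 and 0.51, against -0.10, -0.17 and -0.04 over all measured genes. Some genes of the list are class II genes themselves. In the naive brain the genes past 2-fold higher were H2-DMb2, H2-Oa, H2-Ob and Cd40. All of these were also among the genes past 2-fold in the blood, and H2-DMb2 and H2-Oa among those of the brain with metastases. Cd40, the costimulatory receptor, was higher in each matrix, at 0.646 against 0.126, 1.21 against 0.245 and 0.737 against 0.147. Cd86, a ligand of CD28, stood at 2.05 against 0.561 in the brain with metastases, where Ctss, the protease that trims Cd74, was at 34.3 against 13.2. Ctsl, a related protease, had log2 ratios of -0.17, -0.28 and 0.30 in the same order of matrices. The promoter factors Rfx5, Rfxap, Rfxank, Nfya, Nfyb and Nfyc were all under 0.5 per 10000 in these comparisons.

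Across the 44 clusters of at least 20 cells, with each matrix centred on its mean, the members had similar patterns. The nearest genes were ranked only for the mean of the members and for Ciita. Pearson's r of log2 levels was 0.995 between H2-Aa and H2-Ab1 and lowest, at 0.79, between Ciita and H2-DMa. Outside the members, the genes most like their mean among 6280 compared were Pkib, an inhibitor of protein kinase A (0.90), the Fc receptor genes Fcgr2b (0.88) and Fcgr1 (0.86), Ly86 (0.86), which pairs with a Toll-like receptor relative on B cells and macrophages, and Rab7b (0.85), followed by Tep1, Rasgef1b, Ctsh, Cxcl16 and Ctss (0.83). For Ciita alone the nearest genes were H2-Aa, H2-Eb1 and H2-Ab1, each at 0.86. The clusters share libraries, droplets and depth correction, so these values are a description.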

How the data were processed

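The authors deposited 1 RNA matrix per tissue whose values are the natural log of 1 plus a depth-corrected UMI count, per the file headers and the values, which are whole within 1e-06 after the log is undone. Sums per cell equalled the corrected total that the authors deposited as a score for each cell of the naive brain and blood. Raw UMI counts per cell, clusters, gates and hashtag calls came from the tables the authors deposited. The submitters' processing notes name Cell Ranger 3.1, Seurat 3.1.1 and mm10. The correction was made within each matrix and pulls cells towards 1 depth. The files were expected to hold raw counts, so the planned count model was replaced by levels per 10000, with a pseudocount of 0.1 on the log2 scale and a minimum of 0.5 for a gene to be measured. A barcode can stand in several matrices, and no doublets were removed here. The brain with metastases was clustered without the class II genes (scanpy 1.11.5, Leiden resolution 1.0, 2000 variable genes, 30 components, 20 neighbours). Genes named beside the members were the markers of fixed lists, the pathway list and the 10 largest ratios in carriers; those named as lower in carriers were picked after their values were seen. Members and lists were chosen with earlier results of these data known. In all 67 columns of the metadata were not used. The levels were tested on simulated data.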

Additional observations from a re-analysis of the deposited data

How the results depend on the processing

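Of 62 alternative values for 9 results, 33 differed from the reported value by less than its spread or stayed on its side, 26 moved and 3 changed sign; the cause was not tested. Without cells whose barcode is in another matrix the carrier share was 10.3% for the naive brain, 13.5% for that with metastases and 15.1% for the blood. With a carrier minimum of 20 it was 17.2%, 18.8% and 18.98%, and with 100 it was 11.5%, 12.4% and 14.5%. Without cells over 3 times the median raw UMIs, an alternative chosen after seeing the data, it was 10.6% for the naive brain and 14.3% for blood; the same limit on corrected totals removed 0 cells. The median arm difference of naive microglia was -0.57 without shared barcodes, -0.52 without cells of high raw UMIs, -0.65 without cells with B cell or dendritic genes and 0.090 by gate, whose makeup differed by arm. In naive cluster 3 it was 1.59, 1.18, 0.54 and, by the Ly6C-high gate, whose makeup also differed by arm, -0.69. In blood B cells it was -0.19 without shared barcodes, -0.34 by gate and -0.18 over cells with at least 2000 raw UMIs. In blood classical monocytes it was -0.29 without shared barcodes, -0.57 by gate and 1.41 by the gates of the earlier annotation. The median accessory ratio in the brain with metastases was 3.1004 without shared barcodes, and the dendritic share of carriers was 16.3% at resolution 0.5 and 14.9% at 2.0. No paired analysis was possible because each arm and tissue was 1 hashed sample, and no replicate could be left out.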
